A study of Homo sapiens with 2 samples.

Results

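The matrix metalloproteinase (MMP) cluster on the long arm of human chromosome 11 was examined for binding of JUNB. It holds 9 genes that lie next to each other: MMP7, MMP20, MMP27, MMP8, MMP10, MMP1, MMP3, MMP12 and MMP13, named here from the lower to the higher coordinate. The genes were taken by name. Peaks were taken where their summit fell between 50 kb before MMP7 and 50 kb after MMP13, a window of 535.225 kb at chr11:102470508-103005732 (GRCh38). The window held 16 of the 33491 peaks of the untreated library and 12 of the 26590 peaks of the etoposide library.

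JUNB was mapped by CUT&RUN, in which an antibody against JUNB guides a nuclease to bound chromatin and the DNA cut free is sequenced. The cells were IMR-90 human lung fibroblasts, without treatment in 1 library and treated with etoposide in the other. The dose and time of treatment were not given in the sources used here. Etoposide traps topoisomerase II on DNA, breaks the DNA and drives fibroblasts into senescence. Each condition was 1 library, so there was no spread between replicates to set a difference against, and no test between conditions was made. RNA was not measured here, so the peaks say where JUNB was found and not how strongly a gene was expressed. A peak list carries no marker of cell identity, and the fibroblast label was not checked against the data.

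JUNB is a subunit of AP-1, a dimeric transcription factor that binds the sequence TGANTCA, most often TGAGTCA or its complement TGACTCA. MMPs are zinc-dependent enzymes that cut extracellular matrix proteins, and several of them, with MMP1 and MMP3 as the best-known cases, are secreted by senescent fibroblasts. The MMP1 and MMP3 genes are textbook targets of AP-1. The cluster holds the secreted collagenases MMP1, MMP8 and MMP13, which open fibrillar collagen, and the stromelysins MMP3 and MMP10, which cut many matrix proteins and activate other MMPs. MMP7 is matrilysin, an MMP without the usual C-terminal domain, MMP12 is the macrophage elastase, and MMP20 is an enzyme of developing tooth enamel. Little is known of MMP27.

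Promoter sequence bears on the cluster because 2 of its genes had a summit right at their start. RefSeq promoter sequences (GRCh38, patch 14) were matched for 5 of the 9 members, MMP7, MMP20, MMP27, MMP8 and MMP10, all on the minus strand. MMP1, MMP3, MMP12 and MMP13 were not matched. The 250 bases before the start site are printed 5′ to 3′ for the 3 promoters that held TGANTCA, a motif that reads the same on both strands, with the motif in capitals. MMP7 lies at chr11:102530748-102530997 and was the promoter with an untreated summit, MMP10 at chr11:102780629-102780878 was the one with an etoposide summit, and MMP20 at chr11:102625333-102625582 had the motif and no summit.
MMP7: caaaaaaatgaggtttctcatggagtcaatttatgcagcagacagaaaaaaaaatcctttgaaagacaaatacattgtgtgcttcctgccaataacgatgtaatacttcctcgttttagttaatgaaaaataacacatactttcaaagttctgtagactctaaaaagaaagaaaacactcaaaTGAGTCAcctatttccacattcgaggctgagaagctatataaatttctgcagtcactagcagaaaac
MMP10: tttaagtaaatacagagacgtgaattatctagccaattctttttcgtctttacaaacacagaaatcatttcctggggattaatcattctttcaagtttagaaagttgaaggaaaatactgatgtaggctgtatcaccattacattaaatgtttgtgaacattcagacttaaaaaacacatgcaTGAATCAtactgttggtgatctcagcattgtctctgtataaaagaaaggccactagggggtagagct
MMP20: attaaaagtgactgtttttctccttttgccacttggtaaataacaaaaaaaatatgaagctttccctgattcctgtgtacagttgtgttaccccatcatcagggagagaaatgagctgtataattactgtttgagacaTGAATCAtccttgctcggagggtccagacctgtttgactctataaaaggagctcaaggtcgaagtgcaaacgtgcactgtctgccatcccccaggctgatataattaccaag

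The motif reads TGAGTCA in MMP7 and TGAATCA in MMP10 and MMP20. In MMP7 and MMP10 it fell on exactly the same bases, 67 to 61 before the start site. In MMP20 it was 112 to 106 bases before the start. Of the RefSeq promoter windows of the genome (250 bases before to 50 after a start), 7.68% held TGANTCA, and 20 of 34961 held it at that very distance of 67 bases. That distance was read from MMP7 and MMP10, which are among the 20. The count therefore does not measure how unusual the match between these 2 genes is. The TATA motif TATAAA, searched on both strands, began 30 bases before the start in MMP7 and 31 in MMP10, 72 in MMP20 and 110 in MMP8, and was not found in MMP27. It was present in 11.5% of all promoter windows. None of the 5 windows held TGACGTCA, the cAMP-response form that some AP-1 and ATF dimers bind, which 1.85% of all windows held.

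The values of each peak are the authors' fold over local background and -log10 q, together with the pileup, which is how many fragments covered the summit and was worked out from their fold and p. The fragment number is given with an exact 95% Poisson interval, which covers counting error only, since without molecular identifiers fragments need not be independent molecules. The etoposide library had 0.836 times the fragments of the untreated library by the same reconstruction. The rank of a peak is its place by -log10 q among 32550 untreated or 25739 etoposide peaks on chromosomes 1 to 22 and X.

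Along the cluster the peaks fell at 18 separate places, 9 of them listed in both libraries, 6 in the untreated library alone and 3 in the etoposide library alone. The 16 untreated peaks made 29.9 per Mb (exact interval 17.1 to 48.5), against 12.5 per Mb on chromosome 11 and 10.8 per Mb over chromosomes 1 to 22 and X. The 12 etoposide peaks made 22.4 per Mb (11.6 to 39.2), against 9.19 and 8.50. The lower bound was above both backgrounds in each library, but the interval takes peaks as independent and evenly spread. Peaks were spread unevenly, so the interval is too narrow. Windows of the cluster's length had quartiles of 1 and 9 untreated and 1 and 7 etoposide peaks. When the chromosomes were laid out in 5642 windows of the cluster's length, the median window held 4 untreated and 3 etoposide peaks, and 6.36% and 8.15% of windows held at least as many as the cluster.

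The stretch of the same length before the window, around BIRC2, BIRC3 and TMEM123, had 15 untreated peaks, 28.0 per Mb (15.7 to 46.2), and 9 etoposide peaks. The stretch after it had 10 untreated peaks, 18.7 per Mb (8.96 to 34.4), and 7 etoposide peaks. Its untreated interval held the densities of chromosome 11 and of all chromosomes. The untreated interval of the stretch before lay above both, so a high untreated density was not particular to the cluster. The etoposide densities were 16.8 per Mb before (7.69 to 31.9) and 13.1 after (5.26 to 26.9). Both etoposide intervals held the densities of chromosome 11 and of all chromosomes. Etoposide over untreated, the peak ratio was 0.750 in the cluster (exact interval 0.324 to 1.69), 0.733 on chromosome 11 and 0.791 over all chromosomes. The interval of the cluster held both, so no fall beyond that of the whole list was detectable from 28 peaks.

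**Figure D1:**
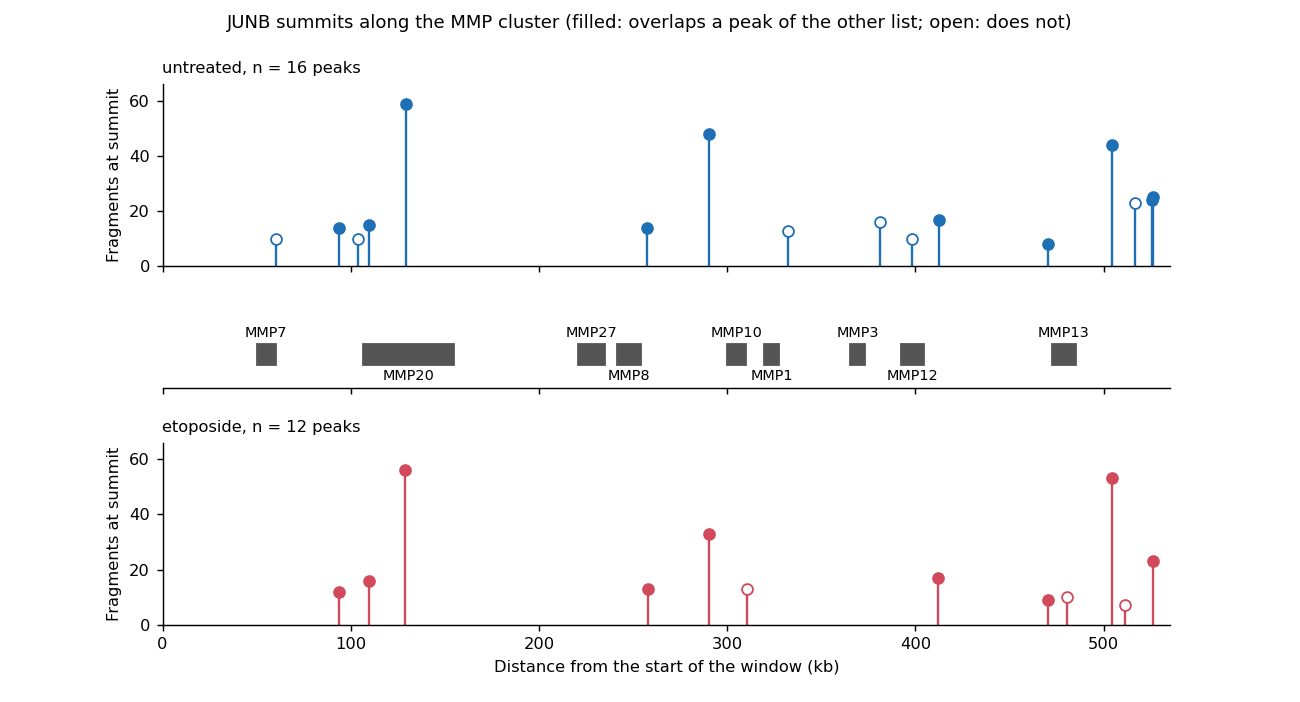
Summits of JUNB peaks along the cluster, by distance from the start of the window in kb (horizontal) and fragments at the summit (vertical), for untreated (above) and etoposide (below), with the 9 genes as boxes between them. Filled points overlap a peak of the other list and open points do not. The tallest points, at 129, 290 and 505 kb, stand at the same places in both libraries. No summit of either library lies inside MMP7, MMP27, MMP8, MMP10, MMP1 or MMP3.

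The strongest JUNB binding of the cluster was at 3 places, the same in both libraries, and none of them was at a gene start. They were the 3 untreated and the 3 etoposide peaks that stood in the top 10% of their lists. The next strongest place, 40.9 kb from MMP13, reached 25 untreated and 23 etoposide fragments. Its counting intervals overlapped those of the weakest of the 3, 33 fragments between MMP8 and MMP10 in the etoposide library and 44 beyond MMP13 in the untreated library.

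The strongest untreated peak of the cluster lay inside MMP20, the enamel protease gene, at chr11:102599430-102600068. It had 59 fragments (44.9 to 76.1), a fold of 10.3 and rank 491. The etoposide peak had 56 fragments (42.3 to 72.7), a fold of 13.1 and rank 104, and its summit was 1 bp away. The summit was 25.7 kb downstream of the MMP20 start site, and the exons and introns of the gene were not used here.

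A second strong place lay between MMP8 and MMP10, the neutrophil collagenase and the second stromelysin, at chr11:102760591-102760855. It had 48 untreated fragments (35.4 to 63.6, rank 754) and 33 etoposide fragments (22.7 to 46.3, rank 825). Its summits were 9.82 and 9.79 kb from the near end of MMP10, which is the 3′ end of that gene, and 6.12 and 6.09 kb from the pseudogene LOC100421658.

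The third lay 19.2 kb beyond the higher-coordinate end of MMP13, collagenase 3, at chr11:102974803-102975384. It had 44 untreated fragments (32.0 to 59.1, rank 734) and 53 etoposide fragments (39.7 to 69.3, rank 77). Its summits were 3 bp apart. It was the strongest of the cluster by -log10 q in the etoposide library, at 47.0, while in the untreated library, at 33.9, it came second after the peak in MMP20.

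The 3 collagenase genes each had a peak within 10 kb in both libraries, though not always the same one. The background at this distance was 49.6% of protein-coding genes for untreated and 38.9% for etoposide. The etoposide peak counted for MMP1 was the one just upstream of MMP10. These 3 genes are too few to set against the background, and the difference was not tested. At MMP13, a shared peak lay 1.94 kb below the gene in the untreated library, at chr11:102940956-102941416, with 8 fragments, and 2.01 kb below it in the etoposide library with 9. The etoposide library alone had a peak inside MMP13, at chr11:102950861-102951083, with 10 fragments and rank 14948.

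Beyond the higher-coordinate end of MMP13, the 50 kb flank held 4 untreated and 3 etoposide peaks, more than any space between members. Apart from the strong place already described, a place 40.5 to 40.9 kb away had 2 untreated summits, with 24 and 25 fragments, under a single etoposide peak with 23. An untreated peak 31.2 kb away had 23 fragments and no etoposide counterpart. An etoposide peak 25.9 kb away had 7 fragments and no untreated counterpart. It was the weakest etoposide peak of the cluster, and only 3.85% of the etoposide list ranked below it.

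MMP8 had 1 place near it, shared by both libraries. Its summit was 2.96 kb upstream of the start site in the untreated library, with 14 fragments, and 3.27 kb upstream in the etoposide library, with 13. The peaks overlapped, but the summits were 304 bp apart.

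MMP1, the interstitial collagenase, had a different peak in each library. The untreated peak lay 4.59 kb beyond the higher-coordinate end of the gene, at chr11:102802663-102802864, with 13 fragments (6.92 to 22.2) and rank 24820. That position is inside WTAPP1, a transcribed pseudogene that spans the whole of MMP1. The etoposide peak counted for MMP1 was 9.07 kb from the gene and was the one just upstream of MMP10. Neither library had a summit inside MMP1 or within 1 kb of it.

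Of the stromelysin genes, MMP10 had peaks within 10 kb in both libraries and MMP3 in the untreated library. MMP10 had an etoposide peak just upstream of its start, at chr11:102780717-102780943, with 13 fragments (6.92 to 22.2), a fold of 8.06 and rank 8796. Its summit was 222 bp upstream of the start site and 158 bp from the centre of the TGAATCA shown above, which lay outside the peak. The nearest untreated summit to MMP10 was the strong shared place 9.82 kb away.

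MMP3, the first stromelysin, had an untreated peak alone. It lay 7.87 kb beyond the higher-coordinate end of the gene, at chr11:102851286-102851586, and 0.995 kb from the long noncoding RNA gene LOC124902741. It had 16 fragments (9.15 to 26.0) and rank 17838. The nearest etoposide summit to MMP3 was 39.1 kb away.

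MMP7, or matrilysin, had an untreated peak at its promoter, at chr11:102530773-102531038. It had 10 fragments (4.80 to 18.4), a fold of 6.15 and rank 24478, a weak peak that stood above 24.6% of the list. Its summit was 115 bp upstream of the start site and 51 bp from the centre of TGAGTCA, which lay inside the peak. The nearest etoposide summit was 33.4 kb away.

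Summits inside promoter windows were uncommon in both libraries. Among 15812 protein-coding genes with a RefSeq promoter window, 5.51% had an untreated and 1.68% an etoposide summit in it. Of the 5 matched members, MMP7 alone had one in the untreated library and MMP10 alone in the etoposide library. Among all promoter windows with a summit, TGANTCA was present in 13.8% of 1228 in the untreated library and 31.8% of 424 in the etoposide library.

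MMP12, the macrophage elastase, had an untreated peak inside the gene, with 10 fragments and rank 21383, and no etoposide counterpart to it. A shared place lay 8.09 kb beyond the gene in the untreated library and 7.72 kb in the etoposide library, with 17 fragments in each. Its summits were 363 bp apart within overlapping peaks, the widest gap among the shared places when the stronger untreated summit is taken where there were 2.

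MMP20 had 3 untreated and 2 etoposide peaks within 10 kb. Besides the strong place, a shared peak inside the gene had 15 untreated and 16 etoposide fragments. An untreated peak 2.72 kb below the gene had 10 fragments and no counterpart. Farther out, 12.6 kb below the gene, a shared peak had 14 untreated and 12 etoposide fragments.

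MMP27 had no peak within 10 kb in either library, the only member of which this was true. Its nearest summits were those at MMP8, 22.1 kb and 22.5 kb away. MMP27 and MMP8 lay in the longest stretch of the cluster without a summit, 128 kb from the strong place inside MMP20 to the peak upstream of MMP8. That stretch also held the 5′ part of MMP20 and all of the antisense gene MMP20-AS1.

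**Figure D2:**
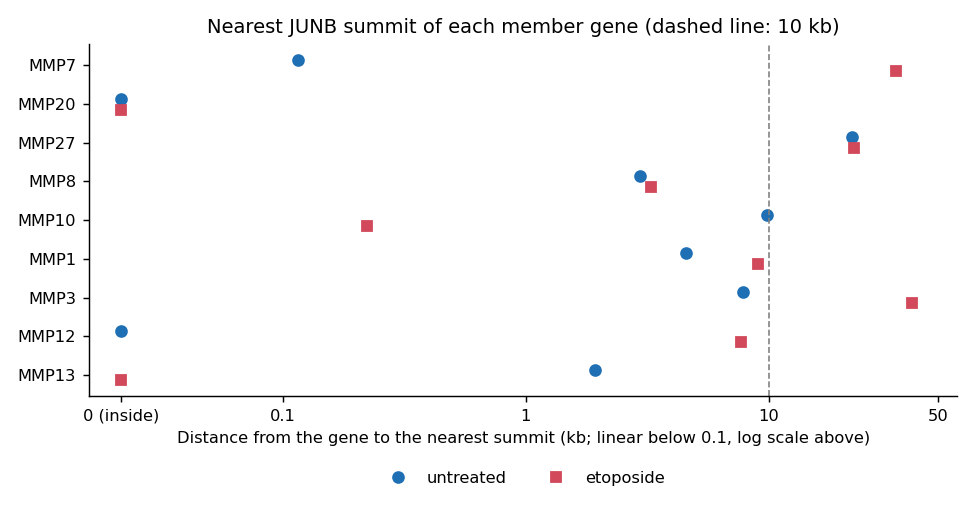
Distance in kb from each member gene (rows) to its nearest summit in the untreated (circles) and etoposide (squares) library, with 0 for a summit inside the gene and a dashed line at 10 kb. MMP7 and MMP3 have an untreated point left of the line and an etoposide point beyond 30 kb, and both points of MMP27 lie right of the line.

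Counted over the members, 8 of 9 genes had an untreated summit within 10 kb (88.9%), where 49.6% of 19974 protein-coding genes did. In the etoposide library 6 of 9 did (66.7%), where 38.9% of all genes did. The genes with a peak in both libraries were MMP20, MMP8, MMP10, MMP1, MMP12 and MMP13, and MMP7 and MMP3 had an untreated peak alone. No member had an etoposide peak alone. The 9 genes are neighbours and share peaks, so they are not 9 independent counts. A summit within 1 kb was found for 3 members in each library, MMP7, MMP20 and MMP12 in the untreated and MMP20, MMP10 and MMP13 in the etoposide library. Of all protein-coding genes 39.5% and 30.3% had one, so 3 of 9 is near the background. The order of the libraries at 10 kb did not hold among the 10000 strongest peaks of each list. There the untreated library had 3 members with a peak and the etoposide library 4, the extra one being MMP1. Its etoposide peak was the one just upstream of MMP10, 9.07 kb from MMP1 and counted for both genes. Lists cut to 10000 are equal in length, and the share of all protein-coding genes was not worked out for them. The change of order is therefore not read as a result about the members.

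Fragment numbers were compared at the 9 places listed in both libraries, a choice that leaves out every place listed in 1 library alone. The ratio of etoposide to untreated fragments ran from 0.688 at the place between MMP8 and MMP10 to 1.20 at the strong place beyond MMP13, with a median of 0.949. Over all 16610 untreated peaks with a counterpart the median ratio was 0.778 (quartiles 0.621 and 1). After division by the relative depth the cluster places ran from 0.823 to 1.44, with a median of 1.14, where the median of all pairs was 0.931. The interval of the ratio from counting alone held 1 at 9 of 9 places, before and after the division, so a difference was not detectable at this depth at any of them. The interval was 0.385 to 3.35 at the weak place below MMP13 and 0.647 to 1.39 at the strong peak inside MMP20.

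**Figure D3:**
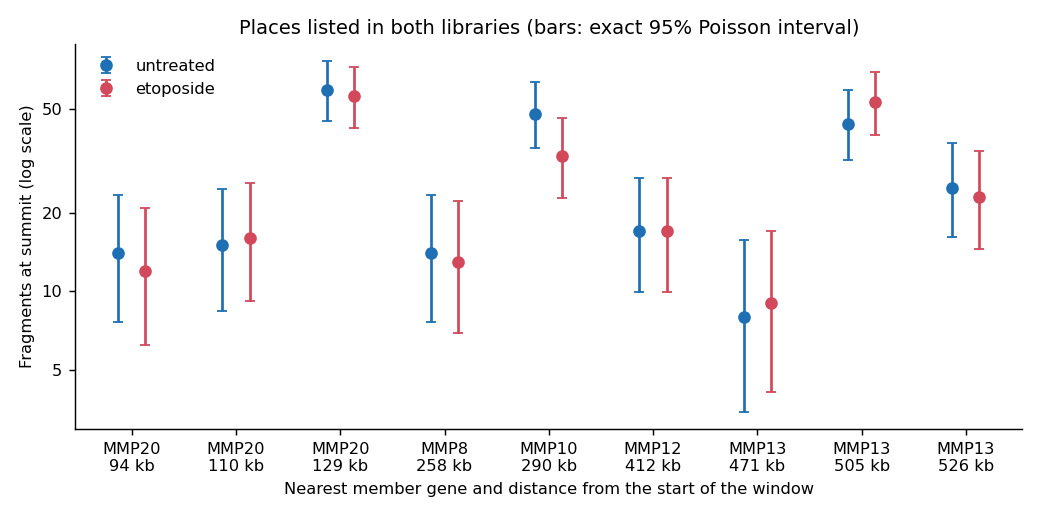
Fragments at the summit (vertical, log scale) at the 9 places listed in both libraries, in order along the cluster, with the nearest member and the distance from the start of the window under each. Bars are exact 95% Poisson intervals, which overlap between untreated and etoposide at every place, from 8 and 9 fragments below MMP13 to 59 and 56 inside MMP20.

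Summits of shared places were within 50 bp of each other at 6 of 9 places, with a median of 18 bp. Over all pairs 57.2% were within 50 bp and the median was 41 bp. The count of 6 of 9 is thus near the background, and the difference in medians was not tested. The sets also differ, since all pairs took every untreated peak with a counterpart. The 9 places left out the weaker untreated summit 40.5 kb from MMP13, which was 0.407 kb from the etoposide summit.

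Peaks of 1 library alone made up 6 of 16 untreated peaks (37.5%, Wilson interval 18.5% to 61.4%), where 49.0% of the untreated list had no counterpart. In the etoposide library they made up 3 of 12 (25%, 8.89% to 53.2%), where 35.2% of the list had none. Both intervals held the share of the whole list, so these counts are near the background.

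The peaks without a counterpart were weaker than the shared ones in each list. The 6 untreated peaks had 10 to 23 fragments with a median of 11.5, and 5 of them ranked in the lower 50% of the list. The 10 shared untreated peaks had 8 to 59 with a median of 20.5. The 3 etoposide peaks alone had 7 to 13 fragments, and the 9 shared ones 9 to 56. The same order held over the whole lists, with medians of 12 without and 19 with a counterpart for untreated and 10 and 14 for etoposide.

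**Figure D4:**
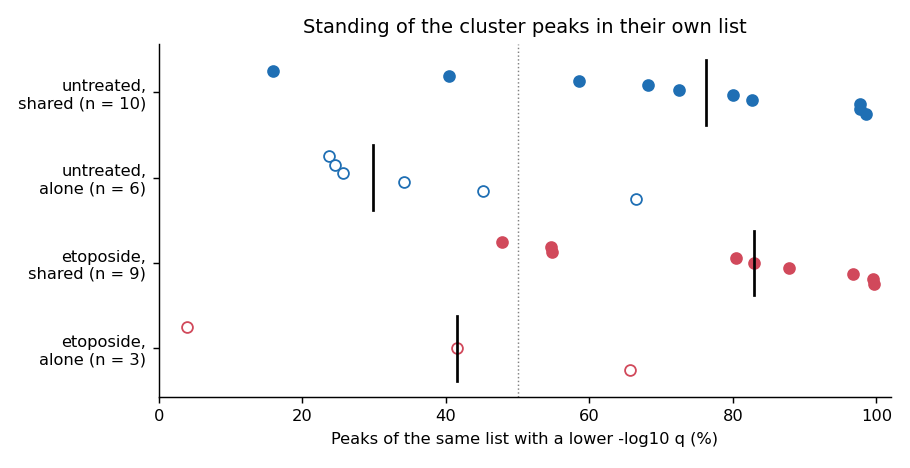
Standing of each cluster peak in its own list, as the percentage of that list with a lower -log10 q, for shared peaks (filled) and peaks of 1 library alone (open), with the median as a bar. The medians are 76.2% and 29.9% in the untreated library and 82.9% and 41.5% in the etoposide library.

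The pileups without a counterpart were also set beside peaks of the other list with a like local background. This was within 10% of the peak's own background brought to the other library by the relative depth of 0.836. The minimum backgrounds of the lists had a ratio of 0.782, so the match was approximate. Multiplied by the relative depth, the 6 untreated pileups came to 8.36 to 19.2 fragments. Between 6.62% (at MMP1) and 44.9% (inside MMP12) of such etoposide peaks had no more than that, and 19.6% at the MMP7 promoter. The 3 etoposide pileups, divided by the relative depth, came to 8.38 to 15.6 fragments. Of such untreated peaks 13.0% had no more at the place 25.9 kb from MMP13, 67.4% inside MMP13 and 87.7% just upstream of MMP10. These shares take no account of counting error on the pileups, and the part of depth in the missing counterparts was not tested. A peak that is not listed may still have had fragments there, and peak lists do not give their number.

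At the edges of the window, the nearest peaks left out were listed in both libraries. They lay 1.36 and 1.40 kb below the window, with 17 untreated and 15 etoposide fragments, and 18.5 kb above it, with 10 and 15. The outermost peaks inside it were those at MMP7 (untreated) and 12.6 kb below MMP20 (etoposide) at the lower end, and those 40.9 kb from MMP13 at the upper end.

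The other MMP genes, which lie on several chromosomes, gave a comparison within the family. Of 14 such genes 7 had an untreated peak within 10 kb and 5 an etoposide peak (50% and 35.7%), close to the shares of all protein-coding genes. Those with an untreated peak alone were MMP15, which encodes a membrane-bound MMP (8 fragments, 3.65 kb away), MMP19 (up to 17 fragments) and MMP24, another membrane-bound MMP (up to 8 fragments). MMP26 had an etoposide peak alone, with up to 10 fragments, in a gene annotated over 288 kb. Of the 4 TIMP genes, which encode the inhibitors of MMPs, 3 had an untreated and 2 an etoposide peak within 10 kb. Of all protein-coding genes 49.6% and 38.9% had one, and 4 genes are too few to set against these shares. TIMP1 had an untreated peak alone, with 9 fragments. The difference between the cluster and these genes was not tested.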

How the data were processed

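The data were 2 narrowPeak lists of JUNB CUT&RUN peaks, 1 per library. Bowtie2, MACS2 and the builds hg38 and mm10 are named, without roles or versions, per the submitters' processing notes. Contig names were those of GRCh38. The deposited fold is a ratio of summit pileup to local background, the deposited -log10 p and -log10 q are those of the summit, and the deposited score is 10 times -log10 q, cut to a whole number. No control library was used here.

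Fragments at the summit (k) and background (b) were solved from fold = (k + 1)/(b + 1) and the Poisson tail above k, which gave whole k within 0.001 for 100% of peaks of both lists. The etoposide over untreated ratio of minimum b (0.782), divided by that of minimum width (0.936), was read as relative depth, an assumption about the caller. A counterpart had at least 1 bp in common. Gene positions and promoters were RefSeq GRCh38, patch 14. Positions count from 1. Tools were Python 3.11.15, pandas 2.3.3 and SciPy 1.17.1, and the functions were tested on simulated data. Groups followed the treatment label. All 9 members and all peaks of the window are described, and of the other MMP and TIMP genes those with a peak in 1 library alone. The members and lists were chosen with earlier results of these data known. The planned share of cluster peaks with TGANTCA needs genome sequence and was not run.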

Additional observations from a re-analysis of the deposited data

How the results depend on the processing

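No paired analysis was possible because each condition had 1 library. Untreated peaks scaled to the etoposide depth and the motif limited to TGAGTCA or TGACTCA were chosen after seeing the data. Of 63 alternative values, 43 stayed within counting error or, for counts, within 1.5 times, and 20 moved. The ratio of etoposide to untreated cluster peaks was below 1 in 6 of 7 settings, the main one included. It was 1.17 among the 10000 strongest peaks of each list, where the lists are equal in length. The settings reuse the same peaks, and the ratio over all chromosomes was 0.791. A value below 1 is therefore not particular to the cluster.

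Among those 10000 the cluster had 6 untreated and 7 etoposide peaks, 100% of the untreated and 71.4% of the etoposide ones had a counterpart, and 3 members had an untreated and 4 an etoposide peak within 10 kb. Other MMP genes with a peak were then 3 and 1, and TIMP genes 1 and 1. With overlap of at least 50% of both peaks, 37.5% of untreated and 50% of etoposide cluster peaks had a counterpart. The share of a whole list with or without a counterpart is given for the main setting only. The counterpart shares at these other settings therefore have no background beside them. Inside gene bodies, members with a peak were 2 and 2 (untreated and etoposide) and other MMP genes 3 and 3. Within 1 kb the members were 3 and 3 and the other MMP genes 3 and 3, and within 50 kb the other MMP genes were 13 and 9. Shares of all protein-coding genes were worked out over the whole lists, at 10 kb and 1 kb only. The member, other MMP and TIMP counts at other settings have no such share beside them. With TGAGTCA or TGACTCA only, 1 of the 5 matched member promoters held the motif in place of 3. Of all promoter windows 4.92% held this narrower motif.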
